A study of Mus musculus with 4 samples.

Results

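A set of 9 secreted or granule proteins of neutrophils were followed in mouse lung, as the 9 rows of the 32285 measured genes whose symbols are S100a8, S100a9, Retnlg, Lcn2, Ngp, Camp, Ltf, Slpi and Wfdc21. S100A8 and S100A9 pair into calprotectin, an alarmin that fills the neutrophil cytosol, binds zinc and calcium and signals through TLR4 and RAGE after release. Lactoferrin (Ltf), lipocalin-2 (Lcn2), cathelicidin (Camp) and neutrophilic granule protein (Ngp) are made for the specific granules while the cell matures in bone marrow. The transcripts of Ltf, Camp and Ngp fade before the neutrophil enters blood. Slpi and Wfdc21 encode small WAP-domain proteins, Slpi an inhibitor of serine proteases such as neutrophil elastase, and Retnlg encodes a resistin-like protein secreted by myeloid cells.

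Single-cell libraries had been made from whole lung of 4 groups, with 1 library a group and 3 hashtagged replicates in each: WT normal lung, WT lung bearing B16/F10 tumor, LAIR1KO normal lung and LAIR1KO lung bearing B16/F10 tumor. B16/F10 is a mouse melanoma line, and LAIR1 is an inhibitory receptor for collagen on leukocytes. The labels give neither the strain nor the age of the mice, and nothing states that each hashtag is a separate animal, so p-values measure only the spread between tagged samples. Genotype and tumor are each carried by whole libraries, so library effects and group effects cannot be told apart.

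Of 16350 barcodes, 15793 passed the filters and 8468 carried exactly 1 hashtag, between 510 and 1050 in each of the 12 replicates, with 2378671 to 6202834 UMIs (unique molecules counted) per replicate. Pairs of libraries shared 3 to 7 barcodes. Lair1 was at 26.5 and 50.1 CPM (UMIs of a gene scaled to equal totals of all genes) in the WT normal and WT tumor libraries and at 0.215 and 0.117 CPM in the LAIR1KO normal and LAIR1KO tumor libraries. The Y-linked gene Ddx3y was at 185 to 202 CPM in the 3 WT normal replicates and at most 0.968 CPM in the other 9, while Xist was at most 0.458 CPM in the former and at least 1119.5 CPM in the latter. WT normal lung therefore differed from every other group in sex as well, and in each comparison with it the 2 cannot be told apart.

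The stretches upstream of 4 of the genes are shown because S100a8, S100a9 and Retnlg had nearly the same pattern over cell classes, whereas Ngp was almost silent in the lung. They are RefSeq promoters of build GRCm38.p6, printed 5′ to 3′ on the gene's own strand up to the RefSeq start or the first GENCODE exon, whichever comes first. Capitals mark matches on either strand to TTGCNNAA, part of the motif of C/EBP factors, or to GAGGAAGT, part of that of PU.1; neither overlapped the other.
S100a8 (chr3:90668821-90668977, plus strand): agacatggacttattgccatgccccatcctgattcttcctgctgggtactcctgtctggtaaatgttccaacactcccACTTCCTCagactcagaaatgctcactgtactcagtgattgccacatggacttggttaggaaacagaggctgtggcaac
S100a9 (chr3:90695722-90695971, minus strand): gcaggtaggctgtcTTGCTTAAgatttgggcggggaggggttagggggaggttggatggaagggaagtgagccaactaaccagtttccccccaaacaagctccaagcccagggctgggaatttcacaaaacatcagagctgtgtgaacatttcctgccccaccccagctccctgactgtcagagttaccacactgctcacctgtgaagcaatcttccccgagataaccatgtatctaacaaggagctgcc
Retnlg (chr16:48872358-48872607, plus strand): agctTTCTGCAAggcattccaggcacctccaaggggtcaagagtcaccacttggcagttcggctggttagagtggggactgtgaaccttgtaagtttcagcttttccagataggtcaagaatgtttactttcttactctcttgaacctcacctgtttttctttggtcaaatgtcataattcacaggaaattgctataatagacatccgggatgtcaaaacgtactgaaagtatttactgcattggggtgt
Ngp (chr9:110419558-110419746, plus strand): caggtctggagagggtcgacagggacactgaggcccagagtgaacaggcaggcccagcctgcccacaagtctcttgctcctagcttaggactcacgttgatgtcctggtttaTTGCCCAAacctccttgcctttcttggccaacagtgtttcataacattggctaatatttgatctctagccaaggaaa
S100a8 and S100a9 lie 22596 bases apart on chromosome 3 (GENCODE M21, S100a8 at chr3:90668978-90670035 on the plus strand and S100a9 at chr3:90692632-90695721 on the minus strand). Within 250 bases upstream, 8 of the 9 genes had an entry and 6 of these 8 held TTGCNNAA, against 9.56% of 32851 promoters of the same length. GAGGAAGT was found in 1 of 8, S100a8, against 2.44%. TATAAA, the TATA box, was found in 1 of 8, again S100a8 but outside the stretch shown, against 12.4%. These are matches of letters only.

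Neutrophil-like cells were 3 clusters named from 12 markers that included none of the 9 genes, and held 2103 cells with 1 hashtag. Of the markers, Csf3r, the receptor of granulocyte colony-stimulating factor, had a UMI in 97.4% of these cells, and Hdc, histidine decarboxylase, in 97.5%, whereas Cd177 had one in 5.28%. Median depth per replicate was 1378 to 1972 UMIs a cell. In 1 of the 3 clusters 71.9% of filtered cells had 2 or more hashtags and were not used. An interferon-led cluster of 131 filtered cells had 10 of the 12 markers and S100a9 at 44111 CPM. It was left unnamed because its leading genes were those of another class, and is outside this class and its shares.

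Calprotectin transcripts made up 8.76% to 12.9% of all UMIs of neutrophil-like cells over the 12 replicates. In WT normal lung, S100a8 stood at 50367, 46289 and 44666 CPM, and in WT tumor-bearing lung at 62622, 49854 and 52219.7 CPM. In LAIR1KO normal lung it stood at 42772, 56323 and 60765 CPM, and in LAIR1KO tumor-bearing lung at 63531, 46598 and 46818 CPM. WT replicates just overlapped between normal and tumor-bearing lung, and the LAIR1KO groups overlapped widely. S100a9 had group means of 49436 ± 1846, 57965 ± 5778, 54723 ± 8980.4 and 56441 ± 8503 CPM (SD, n = 3 each) in WT normal, WT tumor, LAIR1KO normal and LAIR1KO tumor lung. For both genes WT tumor lung had the highest mean and WT normal lung the lowest, by less than the spread within some of the groups. The number of S100a8 UMIs per S100a9 UMI stayed between 0.866 and 0.995 in the 12 replicates. Among the 2103 cells, 99.5% had an S100a8 UMI and 99.8% an S100a9 UMI, with medians of 81 and 87 UMIs a cell.

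Retnlg was at 3209 ± 621 CPM in WT normal, 3927 ± 347 in WT tumor, 3359 ± 513 in LAIR1KO normal and 3151 ± 204 in LAIR1KO tumor lung (SD, n = 3 each). Its 12 replicate values ran from 2523 to 4303 CPM, a 1.71-fold range, and 79.4% of cells had a UMI.

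Among the specific-granule genes, Lcn2, whose protein binds bacterial siderophores, was the one with a level of more than a few cells. It was at 835, 847 and 767 CPM in WT normal lung and at 1512, 1019 and 824 CPM in WT tumor-bearing lung, so 1 tumor replicate lay within the normal range. LAIR1KO normal lung had 533, 869.7 and 941 CPM and LAIR1KO tumor-bearing lung 1002, 872 and 723 CPM.

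Ngp, Camp and Ltf were near the limit of detection. Ngp had 212 UMIs in 43 of the 2103 cells, Ltf 60 UMIs in 34 cells, and Camp 38 UMIs in 2 cells. A single cell of WT tumor replicate 2 held 123 of the Ngp UMIs (58.0%), 36 of the Camp UMIs and 21 of the Ltf UMIs. That cell had 14 UMIs of Mmp8, the collagenase of specific granules, and none of Mpo, Elane, Prtn3 or Ctsg, which encode primary-granule proteins. Ngp thus stood at 470.4 CPM in WT tumor replicate 2, at 103 and 9.06 CPM in the other WT tumor replicates, and between 0 and 47.3 CPM in the 9 replicates of the other groups.

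The antiprotease Slpi was lower in every WT tumor replicate (3200.2, 2030.3 and 3184 CPM) than in any WT normal replicate (4021, 3464 and 3974 CPM). LAIR1KO lung showed no such gap, with 3284, 3305 and 2688 CPM without tumor and 3291, 3390.0 and 3546 CPM with it. Wfdc21 ran the other way in WT lung, from 550.2, 709 and 659 CPM to 1197, 802 and 865 CPM. In LAIR1KO lung Wfdc21 was at 485, 781 and 972 CPM without tumor and at 859, 778 and 598 CPM with it.

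**Figure D1:**
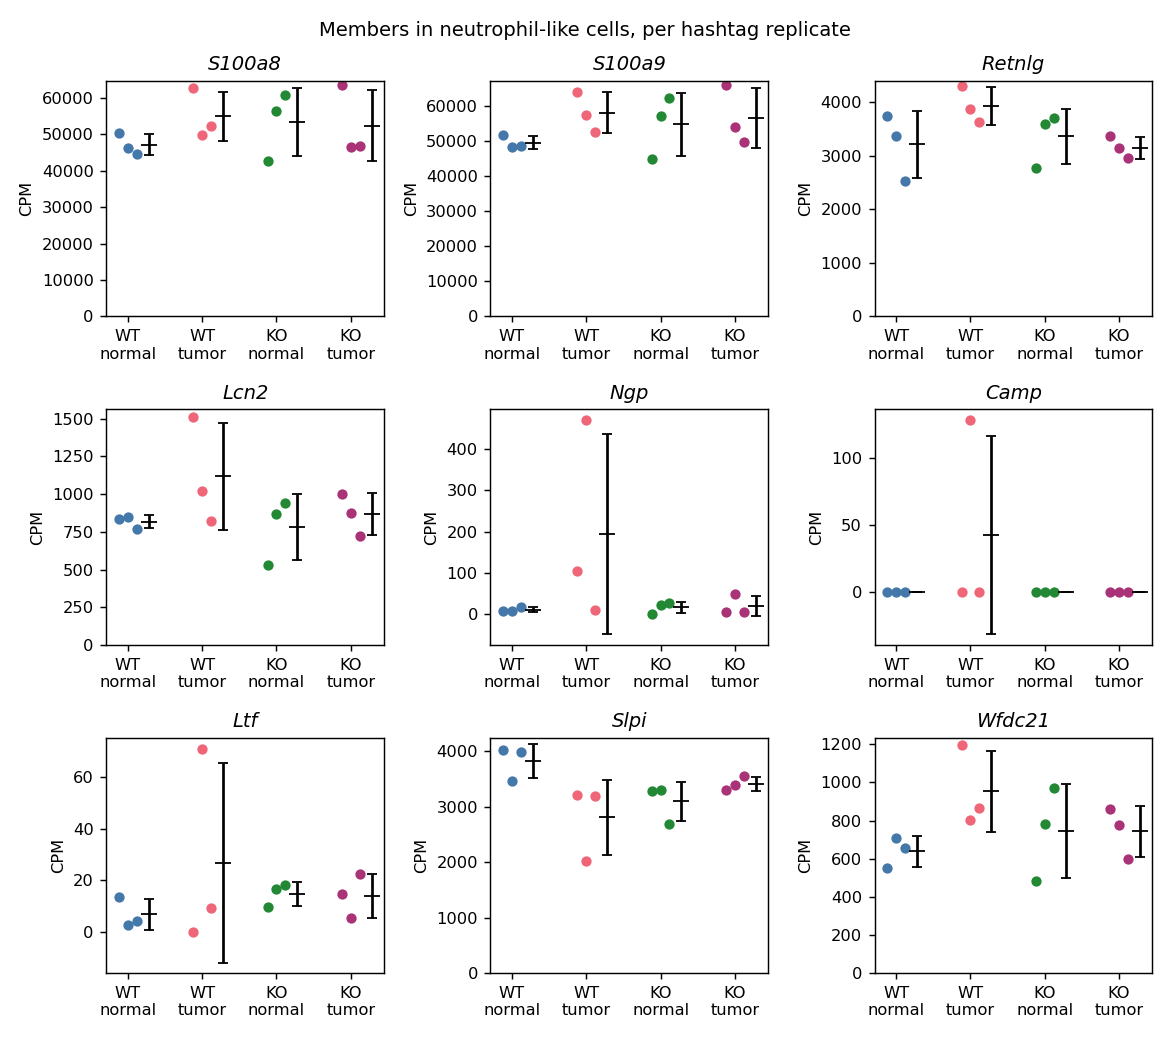
CPM of each gene in neutrophil-like cells (y axis, linear) in the 4 groups (x axis), with 1 point per hashtag replicate and the mean ± SD (n = 3) in black. Camp is high in a single WT tumor replicate. Ngp is highest in the same replicate, and another WT tumor replicate also lies above all replicates of the other groups. WT tumor replicates lie below WT normal ones for Slpi and above them for Wfdc21.

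UMIs summed per replicate were tested with edgeR's quasi-likelihood test, adjusted by Benjamini-Hochberg over 3279 genes. Camp and Ltf fell below the filter on low counts, so 7 of the 9 genes were tested. Between tumor-bearing and normal WT lung 1 of the 7, Ngp, passed an adjusted p of 0.05, where 2.04% of all genes did. Between LAIR1KO and WT tumor-bearing lung Ngp was again the 1 gene to pass, against 0.488% of all genes.

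Both Ngp calls rest on the cell described above. The log2 fold change was 4.23 ± 0.73 (SE, adjusted p = 0.00115, edgeR) for tumor in WT and -3.85 ± 0.77 (adjusted p = 0.013) for LAIR1KO against WT with tumor. Without that 1 cell the changes were 2.35 (adjusted p = 0.0607) and -1.95 (adjusted p = 0.222). Without WT tumor replicate 2 the adjusted p values were 0.161 and 0.474, and without LAIR1KO tumor replicate 1 that of the second was 0.115. With edgeR's robust estimate of the spread, the adjusted p values were 0.153 and 0.283, and none of the 7 genes passed in any comparison or in the interaction. DESeq2 gave Ngp no adjusted p in either.

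The other genes did not pass in these comparisons. For tumor in WT, the log2 fold change of Slpi was -0.40 ± 0.13 (adjusted p = 0.106), of Wfdc21 0.63 ± 0.18 (adjusted p = 0.0658) and of Lcn2 0.51 ± 0.18 (adjusted p = 0.148). S100a8 and S100a9 were at 0.27 ± 0.12 and 0.28 ± 0.11, and Retnlg at 0.35 ± 0.13. All 7 had an unadjusted p under 0.05 there, as had 14.8% of all 3279 genes, and the median of the 7 was 0.35, against 0.01 over all genes. For LAIR1KO against WT with tumor, Slpi was at 0.31 ± 0.13 (adjusted p = 0.327, edgeR) and Retnlg at -0.29 ± 0.13 (adjusted p = 0.369). Lcn2 was at -0.33 ± 0.18, Wfdc21 at -0.31 ± 0.18, S100a8 at -0.04 ± 0.12 and S100a9 at -0.01 ± 0.11. In that comparison 3 of the 7 had an unadjusted p under 0.05, as had 12.1% of all genes.

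For LAIR1KO against WT in normal lung, 0 of 7 passed with edgeR (0.671% of all genes did), 1 had an unadjusted p under 0.05 (10.2% of all genes had), and DESeq2 called 0. For tumor in LAIR1KO lung, 0 of 7 passed with edgeR (0.152% of all genes), 0 had an unadjusted p under 0.05 (10.9% of all genes had), and DESeq2 called 0. The test of whether the tumor difference itself differed by genotype passed for 0 of 7 with edgeR (0.396% of all genes), with 4 at an unadjusted p under 0.05, where 14.0% of all genes were, and 0 called by DESeq2. Slpi had an interaction of 0.59 ± 0.18 on the log2 scale (adjusted p = 0.131, edgeR).

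Genes around these proteins gave no calls in neutrophil-like cells. Of 66 genes in 7 lists 40 were tested, and edgeR and DESeq2 each called 0 in all 4 comparisons and the interaction, with 4, 3, 6, 4 and 8 of the 40 at an unadjusted p under 0.05 in edgeR. Of all genes 10.2%, 12.1%, 14.8%, 10.9% and 14.0% were under that p, for genotype in normal lung, genotype with tumor, tumor in WT, tumor in LAIR1KO and the interaction. None of the 6 primary-granule genes had enough counts to be tested, and the highest, Prss57 and Prtn3, averaged 5.29 and 1.78 CPM. Of 18 other specific and gelatinase granule genes 17 were tested, with the gelatinase gene Mmp9 at 1646 CPM and the sheddase gene Adam8 at 1464 CPM, and a median change for tumor in WT of 0.19 on the log2 scale against 0.01 over all genes. Of 9 other S100 genes 3 were tested, with S100a6 at 7949 CPM and S100a11 at 5635 CPM and a median of 0.06 in that comparison.

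Of 11 receptors and partners of alarmins 7 were tested, with Cd14, a co-receptor of TLR4, at 3556 CPM and Cap1 at 614 CPM, and their median for tumor in WT was 0.24. Of 10 regulators of granule genes 6 were tested, with Cebpb, a C/EBP factor, at 10134 CPM and Csf3r at 2763 CPM, and a median of 0.08. The 6 genes of the NADPH oxidase, which makes superoxide, were all tested, with Cyba at 1084 CPM and a median of 0.05. Of 7 WAP and resistin relatives 6 were measured and 2 tested, Wfdc17 at 856 CPM and Retn at 123 CPM, with a median of 0.08.

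Neutrophil-like cells were 23.9%, 36.0% and 33.8% of cells with 1 hashtag in the WT normal replicates and 23.4%, 20.6% and 17.4% in the WT tumor replicates. These shares also depend on hashtag calling, which kept 2103 of 3303 filtered neutrophil-like cells and 1249 of 3265 fibroblast-like cells. With the hashtag ratio rule the means of WT normal and WT tumor lung were 23.4% and 15.4%, against 31.2% and 20.5% here. LAIR1KO normal replicates had 8.1%, 36.7% and 34.2%, and LAIR1KO tumor replicates 33.2%, 24.9% and 14.0%. The WT groups did not overlap, with a difference of -10.8 percentage points (exact permutation test, two-sided, p = 0.1, the smallest that 3 against 3 allows, adjusted over 4 comparisons 0.4). The other 3 comparisons had exact permutation p between 0.6 and 0.9.

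Outside neutrophils, Lcn2, Wfdc21 and Slpi also had high levels in certain other classes, and Ltf had its highest level in another class on few UMIs. Neutrophil-like cells averaged 895 CPM of Lcn2 and 3281 CPM of Slpi over the 12 replicates, more than the levels given here for other classes. Lcn2 was at 655 CPM in alveolar type 2 epithelial-like cells, the surfactant-producing cells, where 89.3% of cells had a UMI. Its level there was 703 ± 163, 644 ± 108, 645 ± 290.4 and 698 ± 143 CPM (SD, n = 3 each) in WT normal, WT tumor, LAIR1KO normal and LAIR1KO tumor lung, all within each other's spread. Wfdc21 was at 718 CPM in alveolar macrophage-like cells, with a UMI in 84.7% of 209 cells, close to its 782 CPM in neutrophil-like cells. Slpi was at 644 CPM in the same macrophages and at 1774 CPM in 26 mesothelial-like cells. In interstitial macrophage-like cells Lcn2 was at 5.06 CPM and Wfdc21 at 2.86 CPM.

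Ltf was at 45.03 CPM in club and ciliated epithelial-like cells (exact 95% Poisson interval 25.7 to 73.1, counting error only), on 16 UMIs in 3 of 14 cells, against 15.6 CPM (11.9 to 20.1) in neutrophil-like cells. With cells that had no hashtag added, it was at 143 CPM in these epithelial cells of LAIR1KO tumor lung, where 1 cell held 62 of the 68 UMIs. Slpi was at 25.1 CPM in interstitial macrophage-like cells, with 113 of its 228 UMIs in 1 cell. Its replicate means there were 47.8 ± 76.2, 8.49 ± 1.81, 37.1 ± 32.1 and 15.1 ± 6.07 CPM (SD, n = 3 each) in WT normal, WT tumor, LAIR1KO normal and LAIR1KO tumor lung. The change for tumor in WT was -2.84 ± 0.77 on the log2 scale and did not pass (adjusted p = 0.0776, edgeR).

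With tumor, Slpi of alveolar macrophage-like cells was at 804, 697 and 919 CPM in WT and at 588, 514 and 512 CPM in LAIR1KO. The replicates did not overlap, but the change of -0.55 ± 0.13 on the log2 scale did not pass (adjusted p = 0.276, edgeR over 4028 genes, of which 0.0248% were called). Alveolar macrophages of normal lung were too few to test.

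EdgeR called 0 of the genes tested in 4 further classes. In alveolar type 2 epithelial-like cells 5 genes were tested, of which 0, 0, 1 and 1 had an unadjusted p under 0.05 for genotype in normal lung, genotype with tumor, tumor in WT and tumor in LAIR1KO, where 9.07%, 0.0%, 0.15% and 6.31% of all genes were called. In endothelial cell-like cells 2 were tested, with 1, 0, 0 and 1 under that p in the same order and 0.679%, 0.0%, 0.099% and 1.7% of all genes called. In fibroblast-like cells 2 were tested, with 0 under that p in each and 0.269%, 0.0%, 0.256% and 0.159% of all genes called. In B cell-like cells 3 were tested, for genotype with tumor and for tumor in WT, with 3 under that p in each and 0.0929% of all genes called in both. Of all genes, 5.998% to 20.8%, 4.23% to 10.9%, 4.79% to 7.55% and 5.39% to 7.34% were under that p in the comparisons of the 4 classes, in the order given. DESeq2 was not run in these classes.

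**Figure D2:**
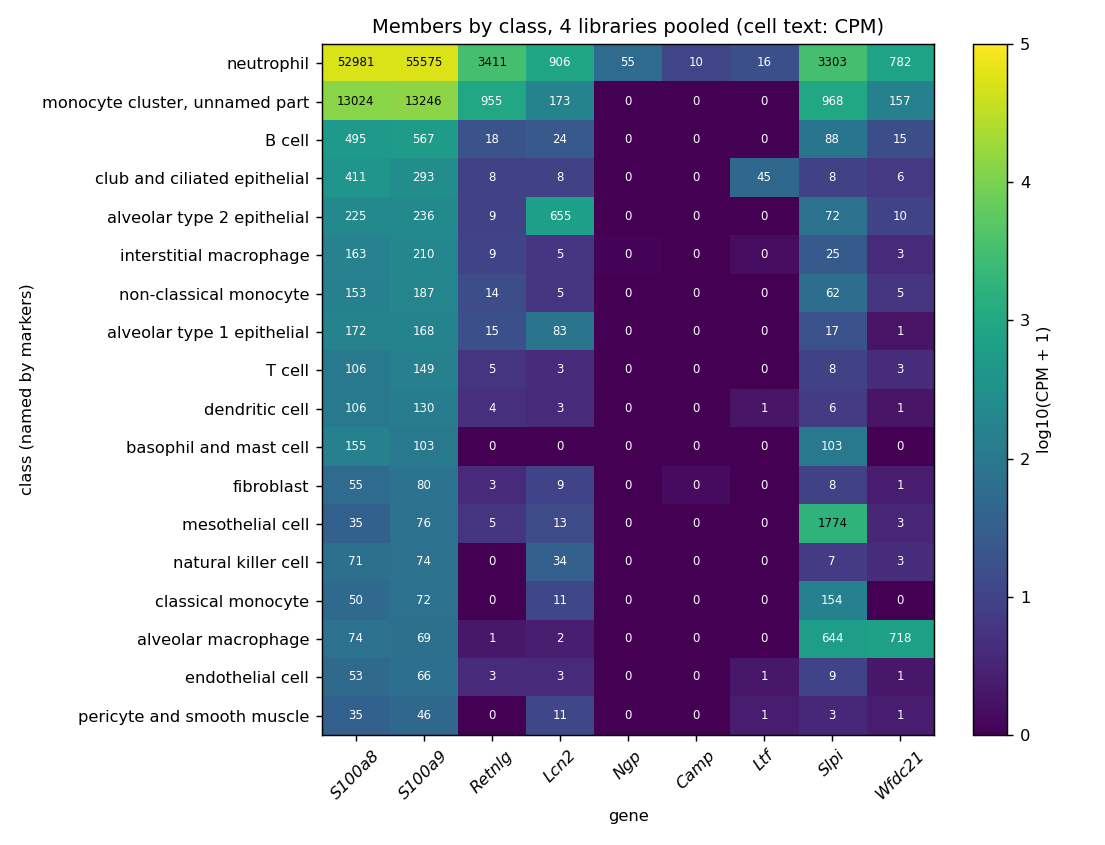
CPM of each gene (columns) in each class of cells (rows), over all cells with 1 hashtag of the 4 libraries. Color is log10(CPM + 1) and the text in each square is the CPM; Lcn2 stands out in alveolar type 2 epithelial cells at 655 CPM, Wfdc21 in alveolar macrophages at 718 CPM and Slpi in mesothelial cells at 1774 CPM.

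S100a8, S100a9 and Retnlg were otherwise low in every named class. S100a8 and S100a9 together were at 81.2 CPM in pericyte and smooth muscle-like cells, 118 CPM in endothelial-like cells, 122 CPM in classical monocyte-like cells and 143 CPM in alveolar macrophage-like cells, against 108556 CPM in neutrophil-like cells. Higher sums, such as 1062 CPM in B cell-like cells and 461 CPM in alveolar type 2 epithelial-like cells, came with a few cells of many UMIs. In cells with fewer than 10 alarmin UMIs, a limit chosen after the values were seen, those sums were 151 and 68.6 CPM. The cells at or above the limit were 4 of 167 and 11 of 637, and Scrublet, a caller of joint droplets, marked 0 and 9 of them.

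Cells with 2 or more hashtags carried more in the 2 classes given here. In B cell-like cells the alarmin sum was 30581 CPM with 2 or more hashtags and 191 CPM with none, and in interstitial macrophage-like cells it was 3023 and 129 CPM. Part of the monocyte cluster that could not be named had 26271 CPM even with 1 hashtag.

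Over 43 sums of class and library (15 classes, which share libraries), the genes whose log2 levels were most like S100a9 were Acod1 (Pearson r = 0.966), Cxcr2 (0.940), Hdc (0.939), Il1f9 (0.935) and Stfa2l1 (0.935). Acod1, Cxcr2 and Hdc were among the markers that defined the neutrophil-like class. S100a8 had r = 0.996 and Retnlg r = 0.971 with S100a9. Slpi was most like Trem1 (0.910), Rab44 (0.903), Msrb1 (0.894), Hcar2 (0.894) and Mmp8 (0.891). Ngp, on 215 UMIs, was most like Ly6g (0.880), Sycp2 (0.854), Ceacam10 (0.850), Amer2 (0.844) and Scrg1 (0.811). These values describe the 43 sums only.

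Interstitial macrophage-like cells, the lung macrophages outside the airspace, were 1504 cells in 3 clusters, numbered 6, 7 and 8, and 4 of the 9 genes could be tested. S100a9 was at 54.5, 80.5 and 78.9 CPM in WT normal, 69.6, 66.8 and 56.8 CPM in WT tumor, 407, 493 and 664 CPM in LAIR1KO normal and 347, 253 and 262 CPM in LAIR1KO tumor replicates. Every LAIR1KO replicate lay above every WT replicate.

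S100a8 was at 47.1 ± 2.78, 42.3 ± 6.05, 389.5 ± 220.2 and 204 ± 80.6 CPM in the same order (SD, n = 3 each). Retnlg was at 1.51 ± 1.35, 2.25 ± 1.28, 30.9 ± 16.2 and 10.6 ± 7.01 CPM. For all 3 genes the SD within each LAIR1KO group was larger than within either WT group, and LAIR1KO normal replicate 1 had only 20 of these cells.

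In normal lung 3 of 4 genes passed for LAIR1KO against WT (1.37% of 7387 genes did). The log2 fold change was 2.98 ± 0.21 for S100a9 (adjusted p = 1.4e-08, edgeR), 3.16 ± 0.34 for S100a8 (adjusted p = 1.3e-05) and 4.82 ± 0.79 for Retnlg (adjusted p = 0.00203). In tumor-bearing lung 2 of 4 passed (0.135% of genes did), S100a9 at 2.18 ± 0.19 (adjusted p = 9.7e-07, edgeR) and S100a8 at 2.32 ± 0.31 (adjusted p = 0.000835). With edgeR's robust estimate of the spread S100a8 did not pass there (adjusted p = 0.217).

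For tumor in WT, 0 of 4 passed with edgeR (0.948% of genes), 1 had an unadjusted p under 0.05 (11.4% of genes had) and DESeq2 called 0. For tumor in LAIR1KO lung, 0 of 4 passed with edgeR (0.0135% of genes), 3 had an unadjusted p under 0.05 (8.001% of genes had), and DESeq2 gave none of the 4 an adjusted p. S100a9 was at -0.91 ± 0.17 there, with an adjusted p of 0.0561 and, with the robust estimate, 0.0259.

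In LAIR1KO normal and LAIR1KO tumor lung, 85.8% and 75.6% of the alarmin UMIs of the class lay in 11 cells. These held 17 to 491 alarmin UMIs each, 68.0% of the 3389 alarmin UMIs of the class. All 11 also had UMIs of the neutrophil markers Csf3r, Cxcr2, Hdc or Mmp9, from 1 to 34 a cell. The share of the other cells of the class with such a UMI is not given here. LAIR1KO normal lung had 6 of them among 218 cells, LAIR1KO tumor lung 5 among 548, and WT normal and WT tumor lung 0 among 252 and 486, which allows shares of up to 1.19% and 0.617%. Scrublet marked 7 of the 11. They were larger than the class as a whole, with a median of 8590 UMIs against 5379. The 11 cells were picked by their alarmin UMIs, with the limit used above for B cell-like cells, chosen after the values were seen. In the remaining cells the alarmin sum was 149 CPM in LAIR1KO normal and 128 in LAIR1KO tumor lung. It was 114 in WT normal and 106 in WT tumor lung. No WT cell reached the limit, so leaving out the 11 could lower only the LAIR1KO sums. These sums therefore do not test whether the remaining cells differed by genotype.

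**Figure D3:**
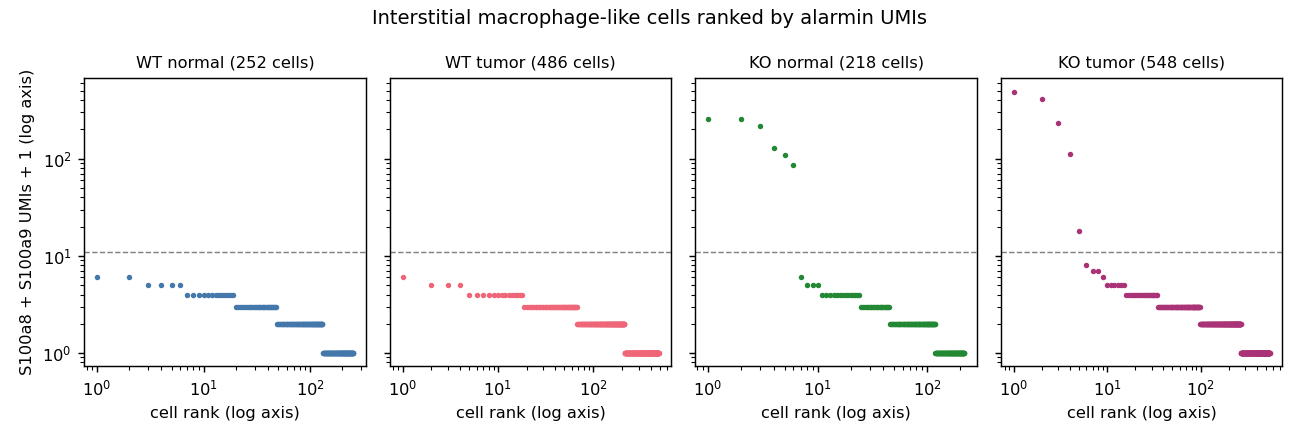
Interstitial macrophage-like cells of each library ranked by their S100a8 + S100a9 UMIs (x axis, rank; y axis, UMIs + 1; both logarithmic), with 1 point per cell and a dashed line at 10 UMIs. No WT cell reaches the line, and 6 LAIR1KO normal and 5 LAIR1KO tumor cells lie above it.

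Without cells that had a UMI of any of these 4 markers, the S100a9 change was 0.35 ± 0.34 in normal lung (adjusted p = 0.826, edgeR) and 0.37 ± 0.29 in tumor-bearing lung (adjusted p = 0.919), and none of the 4 genes passed. Each of the 11 cells had such a UMI, so the rule of this setting removed all of them with their alarmin UMIs. None of the 4 genes passed either when the hashtag was taken by a ratio rule or when the 9 genes were among those used for clustering. With cells marked by Scrublet removed, S100a9 kept 2.11 ± 0.36 in normal lung (adjusted p = 0.00365) and had 0.28 ± 0.35 in tumor-bearing lung (adjusted p = 0.936). By cluster, the change in normal lung passed in cluster 8 (4.53 ± 0.28), which held 8 of the 11 cells, 5 of them from LAIR1KO normal lung. It did not pass in cluster 7 (2.26 ± 0.62, adjusted p = 0.189, edgeR), which held 3, of which 1 was from LAIR1KO normal lung. In cluster 7 S100a9 was at 233 CPM in LAIR1KO normal and 55.2 CPM in WT normal lung. Nor did the change pass in cluster 6 (0.63 ± 0.35, adjusted p = 0.785, edgeR), which held 0 of the 11. With each cell thinned to 1500 UMIs, 16.9%, 16.4%, 25.7% and 19.7% of cells had an alarmin UMI in WT normal, WT tumor, LAIR1KO normal and LAIR1KO tumor lung (51.6%, 43.8%, 54.1% and 49.1% unthinned). Fibroblast-like cells had one in 48.9% unthinned and 11.9% thinned at a median of 8103 UMIs, against 48.5% and 17.7% in all the macrophages at a median of 5379.

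**Figure D4:**
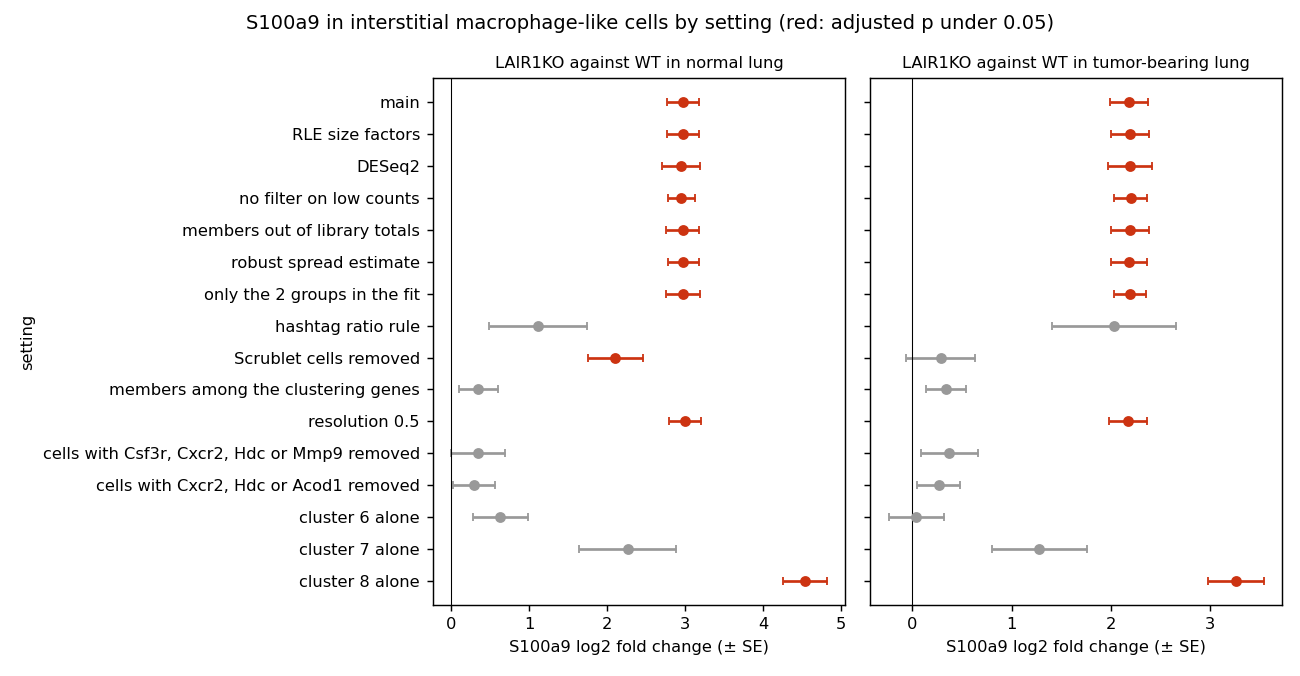
Log2 fold change of S100a9 (x axis, ± SE) for LAIR1KO against WT in interstitial macrophage-like cells of normal (left) and tumor-bearing lung (right) under each setting (rows), in red where the adjusted p is under 0.05. The change is 2.98 and 2.18 in the fit reported and 0.35 and 0.37 without cells that had neutrophil markers.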

How the data were processed

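UMI counts per gene and barcode, and hashtag counts, were used as the authors deposited them. The submitters' processing notes name Cell Ranger 4.0.0, STAR, R 4.0.0, Seurat 3.2.0 and mm10. Cells needed at least 300 genes and at most 10% mitochondrial UMIs. Hashtags were called with HTODemux (Seurat 5.3.0, quantile 0.99), and the comparisons used cells with 1 hashtag; cells marked by Scrublet were kept in the main analysis. Cells were clustered with scanpy 1.11.5 and leidenalg 0.10.2 (2000 variable genes, 30 components, resolution 1.0) without the 9 genes, and a cluster was named where at least 3 markers of a class were among its 100 leading genes, a rule set after the clusters were seen. "X-like" classes are rebuilt names.

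Sums of UMIs for each class of a replicate (minimum 10 cells) were tested with edgeR 4.0.16 (TMM, filterByExpr, glmQLFit with its default estimate of the spread, all groups in 1 fit); DESeq2 1.42.0 was an alternative. The edgeR fit was first run with the robust option, and its calls were seen before it was replaced by the default, because the written design names glmQLFit with no such option. The change altered calls: in neutrophil-like cells Ngp passed in 2 comparisons only with the default, and in macrophage-like cells S100a8 passed in 1 only with the default and S100a9 in 1 only with the robust option; both versions are given. The procedure was tested on simulated data with 200 changed genes. Over the comparisons in neutrophil-like cells, 69% to 73% of 2-fold and 90% to 98% of 4-fold changes were recovered, and 5 to 8 unchanged genes were called. In interstitial macrophage-like cells 62% to 74% and 94% to 99% were recovered, and 6 to 14 unchanged genes were called. These shares are over all genes and are not given for genes whose UMIs lie in few cells. CPM scale UMIs of a gene to equal totals. Shares were compared by exact permutation tests. All 9 genes are described in neutrophil-like cells, and elsewhere those with at least 50 UMIs; of the other lists, the 2 genes of highest mean CPM are named where none passed, except 1 gene that is not reported here. The genes and lists were chosen with earlier results of these data known. Intervals and limits cover counting error only.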

Additional observations from a re-analysis of the deposited data

How the results depend on the processing

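Each group is 1 library with 3 hashtags, so library and group cannot be told apart, nor can sex in comparisons with WT normal lung. The Ngp calls depend on 1 neutrophil-like cell. Most alarmin UMIs of LAIR1KO macrophage-like cells lay in 11 cells, and the comparisons were not tested with only those 11 removed. Camp and Ltf had too few UMIs to be tested in neutrophil-like cells. No paired analysis was possible because the hashtag numbers name tags and the labels tie no sample of one group to one of another.

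Number of genes passing in neutrophil-like cells: for LAIR1KO against WT with tumor, 1 became 0 with DESeq2 (which gave Ngp no adjusted p), 0 with the robust spread estimate (run first, see the processing), 0 without the cell with the most Ngp, 2 with no filter on low counts, and 0 to 1 with each replicate left out (0 without WT tumor replicate 2 or LAIR1KO tumor replicate 1). For tumor in WT, 1 became 0, 0, 0 and 3 in the same order of settings, and 0 to 2 with each replicate left out (0 without WT tumor replicate 2, 2 without LAIR1KO normal replicate 1). For the interaction, 0 became 1 with no filter and 1 with the hashtag ratio rule, and 0 to 1 with each replicate left out (1 without WT tumor replicate 3). The share of all genes passing is given for the fit reported only. These counts therefore do not show whether the genes followed here moved more than all genes did.

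In interstitial macrophage-like cells, for LAIR1KO against WT in normal lung, 3 became 0 with the ratio rule, with the 9 genes in the clustering, without cells with neutrophil markers (both marker sets), and in clusters 6 and 7 alone; it was 3 with any replicate left out. With tumor, 2 became 0 in those settings and without Scrublet cells, and 1 with the robust estimate. For tumor in WT, 0 became 1 with no filter and 0 to 1 with each replicate left out (1 without WT normal replicate 2 or 3). For tumor in LAIR1KO, 0 became 3 with no filter, 1 with the robust estimate, 1 with only the 2 groups, 2 without Scrublet cells, 3 in cluster 8 alone, and 0 to 1 with each replicate left out (1 without WT normal replicate 3 or LAIR1KO tumor replicate 1). Here too the share of all genes passing is given for the fit reported only, and the counts are read with that limit.

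The sign of some changes turned, and the cause was not tested. In neutrophil-like cells these were Lcn2 for genotype in normal lung (-4.3e-05, DESeq2), for genotype with tumor S100a8 (0.021, ratio rule) and S100a9 (0.023 with no filter, 0.034 with the ratio rule, 0.0073 without the Ngp cell), and for tumor in LAIR1KO S100a8 (-0.016, ratio rule), Ngp (0.052, DESeq2), Wfdc21 (0.023, DESeq2) and Retnlg (0.00031, interferon-led cluster added). In macrophage-like cells they were S100a8 for genotype in normal lung (-0.050, cluster 6), for tumor in WT S100a8 (0.14) and S100a9 (0.21) in cluster 7 and Retnlg (-0.98, ratio rule), and for tumor in LAIR1KO Slpi (0.12), S100a8 (0.12) and S100a9 (0.0013) with the ratio rule and S100a8 with the 9 genes in the clustering (0.21), in cluster 6 (0.031) and in cluster 7 (0.13). Not all of these macrophage changes were small in the fit reported. There S100a8 was at 3.16 for genotype in normal lung, and Retnlg at 0.82 for tumor in WT. For tumor in LAIR1KO, S100a8, S100a9 and Slpi were at -0.98, -0.91 and -0.92.

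With each replicate left out, log2 changes in neutrophil-like cells ranged, for genotype in normal lung, from -0.10 to 0.19 for Lcn2 and from -0.027 to 0.24 for Retnlg. For genotype with tumor they ranged from -0.24 to 0.090 for S100a8 and from -0.17 to 0.091 for S100a9. For tumor in LAIR1KO they ranged from -0.027 to 0.27 for Lcn2, -0.17 to 0.12 for S100a8, -0.061 to 0.19 for S100a9, -2.17 to 0.20 for Ngp, -0.18 to 0.20 for Wfdc21 and -0.17 to 0.012 for Retnlg. In macrophage-like cells Slpi ranged from -1.67 to 2.63 for genotype in normal lung and from -3.31 to 0.90 for tumor in WT, and Retnlg from -0.080 to 1.39 for tumor in WT.

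The difference in neutrophil-like share (percentage points) became 0.799 for genotype in normal lung with the ratio rule. With each replicate left out it ranged from -10.1 to 4.24 there, from -0.9995 to 8.61 for genotype with tumor and from -11.4 to 2.89 for tumor in LAIR1KO. Thinned to 1000 UMIs, 11.6%, 10.8%, 17.1% and 11.7% of macrophage-like cells had an alarmin UMI in WT normal, WT tumor, LAIR1KO normal and LAIR1KO tumor lung.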
